A study of Mus musculus with 146 samples.

Results

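The interferon-stimulated gene module was a list of 37 genes whose transcripts are induced by type I interferon, and it was described in unstimulated macrophages. The members were taken by name: each listed gene was matched to its row of the deposited count table, and all 37 were found among 22721 counted genes. All 37 passed the filter on low counts that left 12060 genes for testing. No measured value chose the members, but the list was drawn up with earlier results of these data known.

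The data were RNA sequencing counts of bone marrow-derived macrophages, which are cells grown from marrow in medium conditioned by L929 fibroblasts, a source of macrophage colony-stimulating factor. Each of 146 libraries came from 1 outbred mouse of the stock Crl:CFW(SW)-US_P08 at 16 weeks, and the cells were grown for 5 days with no further treatment named in the labels. There were 60 male and 86 female libraries, and the labels give no genotype, allele or agent that differs between them. The libraries sat on 7 plates and carried 28 collection date labels.

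Interferon alpha and beta bind a receptor on the cell surface whose kinases phosphorylate STAT2 and other factors. STAT2 and IRF9 are parts of the complex ISGF3, which binds interferon-stimulated response elements near the genes listed here. Macrophages keep a low level of many of these transcripts without infection, and the products restrict viruses, sense foreign RNA or return to regulate the pathway.

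Library depth ran between 14.5 and 121 M counts, with a median of 43.8 M. Summed CPM of the Y-linked genes Ddx3y, Uty, Kdm5d and Eif2s3y went against the sex label in 6 libraries, which lay on 2 plates. A further library labelled male, male 34, had 86.5 CPM, against 213 to 392 CPM in the other males whose label was matched. All 146 libraries were kept, and the counts of called members are also given without these libraries. Summed CPM of 7 macrophage markers ran between 11020 and 24400 in male libraries and between 10380 and 21950 in female libraries, so these markers were abundant in every library. Summed CPM of 4 T and NK cell markers was at most 1.104 in male libraries and at most 0.5834 in female libraries. Other lists were higher and varied widely. The 10 granulocyte and precursor markers summed to 77.76 to 1419 CPM in male libraries and 97.27 to 1673 CPM in female libraries. The 3 monocyte markers summed to 63.31 to 1024 CPM in male libraries and 66.68 to 927.9 CPM in female libraries.

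Promoter stretches of 6 members are printed because these genes span the module: Isg15, Ifit3 and Rsad2 moved closely with the other members and varied widely, Bst2 was abundant, Slfn8 moved least closely but for Ifi27l2a, and Oasl2 moved most closely of all. Each is the 180 bases before the gene's start, 5′ to 3′ on the gene's strand, from RefSeq on GRCm38.p6. The capitals mark the core of the interferon-stimulated response element, which is GAAA, then 2 bases of any kind, then GAAA, or its reverse complement on the other strand, with overlapping matches merged.
Isg15, chr4:156200819-156200998, - strand: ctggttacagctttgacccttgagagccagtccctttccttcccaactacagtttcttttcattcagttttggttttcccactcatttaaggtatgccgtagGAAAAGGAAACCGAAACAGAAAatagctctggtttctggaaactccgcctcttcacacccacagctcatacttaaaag
Ifit3, chr19:34583349-34583528, + strand: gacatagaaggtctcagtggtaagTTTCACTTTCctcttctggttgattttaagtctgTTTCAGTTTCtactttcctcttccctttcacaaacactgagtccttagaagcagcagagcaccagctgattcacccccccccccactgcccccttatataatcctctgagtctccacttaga
Rsad2, chr12:26456453-26456632, - strand: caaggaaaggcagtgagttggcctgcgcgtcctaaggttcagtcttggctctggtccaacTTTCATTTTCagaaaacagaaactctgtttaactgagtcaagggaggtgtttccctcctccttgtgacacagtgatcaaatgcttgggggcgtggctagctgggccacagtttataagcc
Bst2, chr8:71537473-71537652, - strand: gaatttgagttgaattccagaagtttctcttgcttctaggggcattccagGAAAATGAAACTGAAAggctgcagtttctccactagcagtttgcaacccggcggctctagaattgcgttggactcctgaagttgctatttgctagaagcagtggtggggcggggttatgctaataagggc
Slfn8, chr11:83020811-83020990, - strand: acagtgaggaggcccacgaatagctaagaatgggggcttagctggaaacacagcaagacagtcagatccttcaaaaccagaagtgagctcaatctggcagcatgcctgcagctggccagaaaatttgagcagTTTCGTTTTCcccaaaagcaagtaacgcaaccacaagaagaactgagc
Oasl2, chr5:114896754-114896933, + strand: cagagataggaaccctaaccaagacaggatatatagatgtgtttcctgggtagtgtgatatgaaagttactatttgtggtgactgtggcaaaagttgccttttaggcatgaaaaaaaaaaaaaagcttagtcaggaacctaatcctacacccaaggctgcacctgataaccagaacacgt

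Isg15 held 3 overlapping matches, the first base of each at 78, 72 and 66 bases before the start. Ifit3 and Bst2 held 2 each, Rsad2 and Slfn8 held 1 each, and Oasl2 held none in the stretch shown. RefSeq windows of 250 bases before to 50 bases after the start were found for 28 of the 37 members, and 14 of these held the motif on either strand, against 3.99% of 27025 genes with a window. A match is a run of letters and not a measured binding site. Spread was the distance between percentiles 10 and 90 of log2 CPM, turned back from the log scale. The prior count of 2 in these log2 values makes it narrower than on plain CPM, most of all at low counts. All percentile ratios below are of this kind. The 14 members with a match had a median spread of 2.28, and the 14 without had 2.42.

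Members differed greatly in level, and every one of them varied more across mice than the median gene. Levels are given as CPM, counts per 1 M counts, scaled by the trimmed mean of M values; CPM per kb divides this by the summed exon length, so that genes can be compared. The summed CPM of the 37 members was 780.5 in the lowest library, 1379 in the median and 3349 in the highest. In bulk RNA, fewer cells that express a gene and less RNA per cell cannot be told apart.

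**Figure D1:**
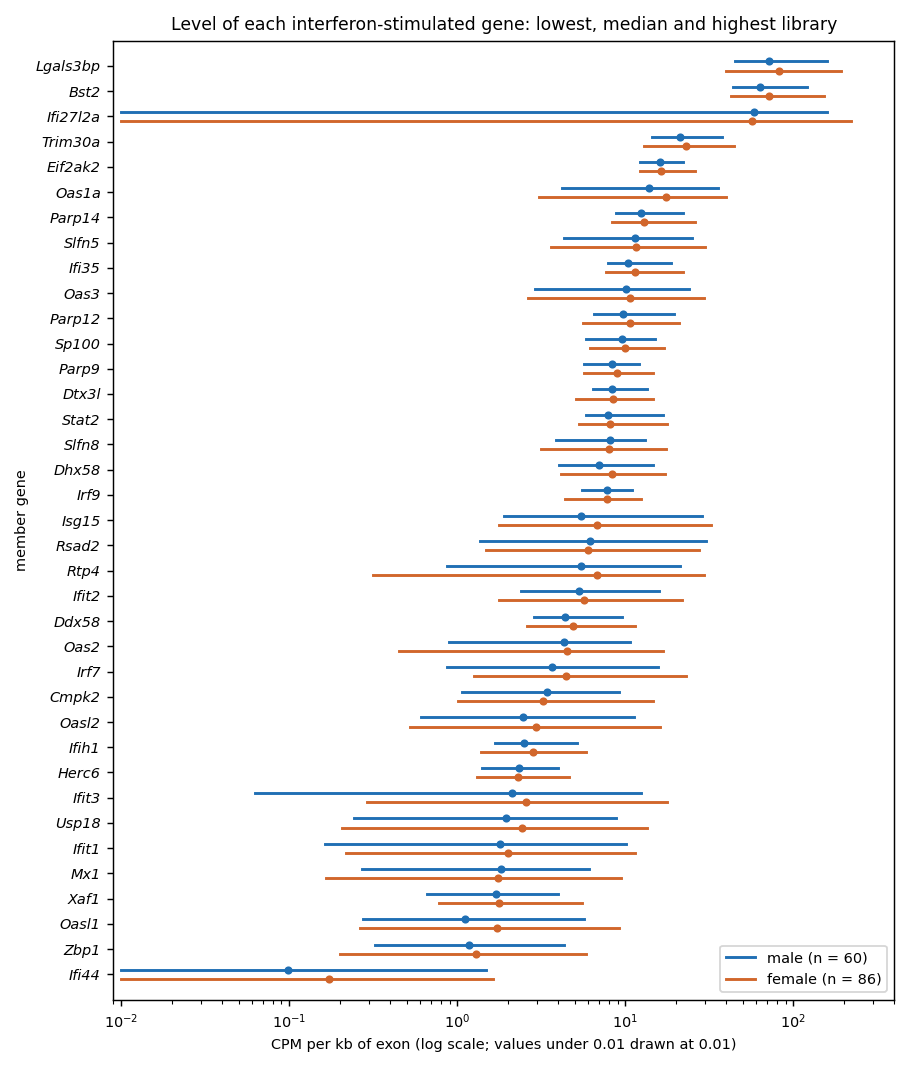
Level of each member in CPM per kb of exon on a log axis, with the line from the lowest to the highest library and the dot at the median, male libraries (n = 60) above female libraries (n = 86); values under 0.01 are drawn at 0.01. The male and female lines overlap for every member, Lgals3bp lies highest and Ifi44 lowest.

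The secreted and ubiquitin-like members differed in level and in spread. Lgals3bp, a secreted glycoprotein, had the highest median at 78.1 CPM per kb. In CPM, it had a lowest, median and highest value of 127.9, 204.5 and 450.2 in male libraries and of 114.0, 234.4 and 548.2 in female libraries, and the sexes overlapped. Isg15, a ubiquitin-like protein that is conjugated to targets and also secreted, had 1.435, 4.15 and 21.62 CPM in male libraries and 1.338, 5.116 and 24.39 CPM in female libraries. Its highest library held 18.2 times the lowest. Herc6, the ligase that conjugates Isg15 in mice, had a narrower ratio of 90th to 10th percentile, 1.85, against 4.57 for Isg15.

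The transcription factors split by spread. Irf7, which drives the later wave of interferon transcription, had 3.284, 13.77 and 59 CPM in male libraries and 4.766, 16.86 and 87.35 CPM in female libraries. Stat2 and Irf9, which belong to ISGF3, varied less than Irf7. The 90th to 10th percentile ratio was 1.70 for Stat2 and 1.56 for Irf9, against 4.32 for Irf7. Irf9 had 29.95, 42.09 and 59.37 CPM in male libraries and 23.65, 42.24 and 67.03 CPM in female libraries. Sp100, a component of nuclear bodies, was as narrow, at 1.55.

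The cytosolic RNA sensors were present in every library. Ddx58, which encodes RIG-I, had 20.31, 30.68 and 67.73 CPM in male libraries and 18.32, 34.5 and 80.67 CPM in female libraries. Ifih1, which encodes MDA5, had 13.69, 20.27 and 41.89 CPM in male libraries and 11.38, 22.99 and 47.89 CPM in female libraries. Dhx58, their regulatory relative LGP2, had 13.26, 22.99 and 47.57 CPM in male libraries and 13.64, 27.13 and 56.59 CPM in female libraries. Zbp1, a sensor of Z-form nucleic acid, was the second lowest member at 1.19 CPM per kb.

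The 2-5A synthetase family, whose active members make the messenger that turns on RNase L, covered a wide range of level. Oas1a stood at 15.9 CPM per kb, Oas3 at 10.4, Oas2 at 4.44, Oasl2 at 2.80 and Oasl1, a member that restrains Irf7 translation, at 1.49. Oas1a had 7.894, 26.17 and 67.39 CPM in male libraries and 5.79, 32.96 and 75.06 CPM in female libraries. The share of sampled 50-base stretches of Oas1a that also occur in another gene was 57%, so its level is uncertain. For Ifit3 the share was 50.5%, and for the other 35 members it was under 20%.

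The antiviral effectors held both wide and narrow members. Ifit1, which binds foreign 5′ RNA ends, had 0.435, 4.774 and 26.94 CPM in male libraries and 0.579, 5.328 and 30.51 CPM in female libraries. Ifit3, its partner, had 0.1087, 3.675 and 21.8 CPM in male libraries and 0.5081, 4.454 and 31.04 CPM in female libraries. Their 90th to 10th percentile ratios were 9.87 and 9.09, and their highest libraries held 70.14 and 285.5 times the lowest. The fewest counts in any library were 13 for Ifit1 and 5 for Ifit3. Eif2ak2, the kinase PKR that halts translation, was the narrowest member with a ratio of 1.51, and had 62.32, 82.35 and 113.5 CPM in male libraries and 62.28, 83.13 and 132.5 CPM in female libraries. Bst2, or tetherin, which holds budding virions at the membrane, was the second most abundant member, at 69 CPM per kb. Rsad2, or viperin, had 5.931, 26.93 and 132.0 CPM in male libraries and 6.476, 26.01 and 119.9 CPM in female libraries. Mx1, a dynamin-like GTPase, had 1.022, 6.92 and 22.95 CPM in male libraries and 0.6235, 6.634 and 35.53 CPM in female libraries.

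Among the regulators and the remaining members, Usp18, the protease that removes Isg15 and dampens receptor signalling, had 0.6786, 5.422 and 24.63 CPM in male libraries and 0.579, 6.781 and 37.5 CPM in female libraries. Rtp4 had 1.849, 11.57 and 45.12 CPM in male libraries and 0.6681, 14.47 and 63.04 CPM in female libraries, with a ratio of 8.52. Xaf1 had 1.76 CPM per kb, among the 4 lowest members. Trim30a was the fourth most abundant, at 22.1 CPM per kb. Of the members not yet given, Parp14 stood at 12.7, Slfn5 at 11.5, Ifi35 at 10.8, Parp12 at 10.1, Dtx3l at 8.46, Slfn8 at 8.07, Ifit2 at 5.40 and Cmpk2 at 3.31 CPM per kb. Parp9, which acts in a complex with the ligase Dtx3l, had a ratio of 1.59. Exons of Parp9 and Dtx3l share 458 bases on opposite strands, and the strand setting of the counting is not given in the sources used here, so reads there cannot be assigned to 1 of them.

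Ifi44 had both the lowest level, 0.156 CPM per kb, and the widest ratio, 21.1. The prior count narrows this ratio: Ifi44 had 0.1533 CPM at percentile 10 and 4.076 CPM at percentile 90. It had 0.0, 0.6019 and 9.05 CPM in male libraries and 0.0, 1.055 and 10.07 CPM in female libraries. In 2 libraries it had 0 counts, where 3 counts would be 0.207 CPM in the shallowest library and 0.0248 CPM in the deepest. Across all members the median ratio was 2.55, against 1.44 over all tested genes. All 37 members lay above that median, and 16 lay above the 90th percentile of tested genes' spread. Members of higher level varied less over the 37, with Spearman rho −0.567 and Pearson r −0.554 on the log scale, across genes that share the same libraries.

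The members varied together across the mice. Over the 666 pairs of members, the median Spearman rho of log2 CPM was 0.775, against −0.0012 over all pairs of tested genes. Every pair was positive, 597 pairs exceeded 0.5 and 69 exceeded 0.9, whereas 2.78% of all gene pairs exceeded 0.5. The pairs share the same 146 libraries. A single component held 76.3% of the members' variance and the next held 6.88%.

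**Figure D2:**
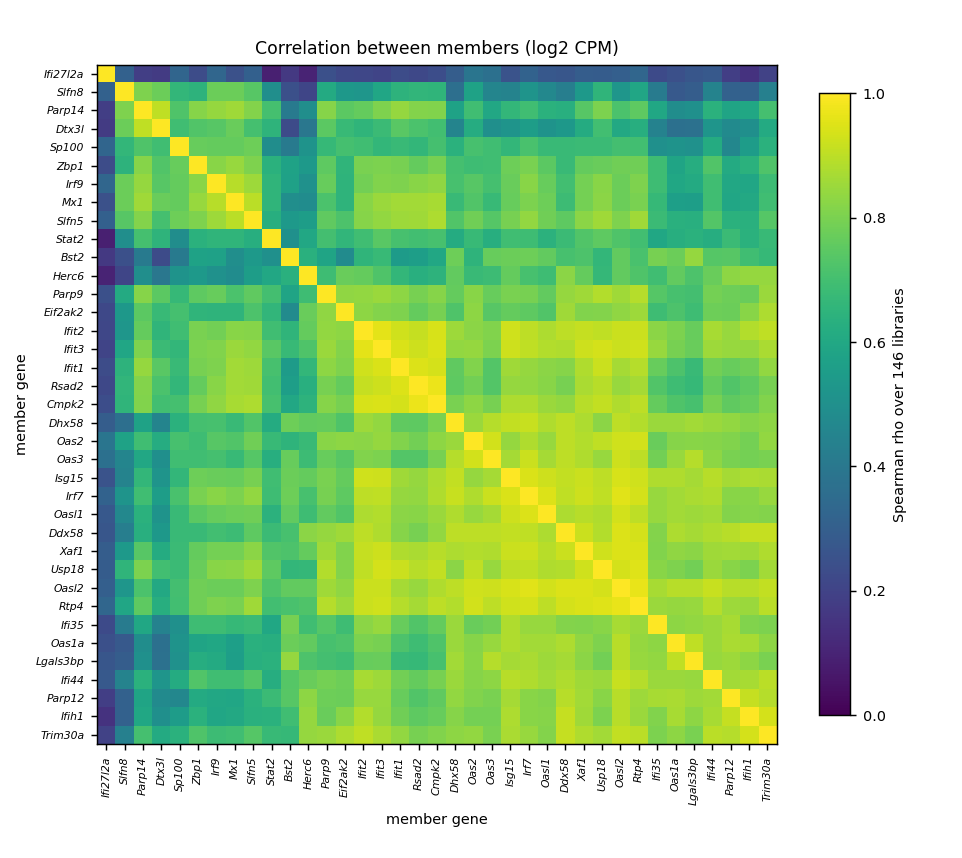
Spearman rho between the log2 CPM of each pair of the 37 members over 146 libraries, with genes ordered by average-linkage clustering on 1 minus rho. Most squares lie above 0.5, and the dark row and column is Ifi27l2a.

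Oasl2 moved most closely with the mean of the other members, with rho 0.976. Rtp4 had 0.973, Xaf1 0.960, Ifit3 0.955 and Usp18 0.953. These 5 came from 4 different role groups and from chromosomes 5, 16, 11, 19 and 6. At the other end, Ifi27l2a had 0.294, Slfn8 0.571, Dtx3l 0.656, Bst2 0.710 and Sp100 0.714. Bst2 and Ifi27l2a were among the 3 most abundant members per kb.

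The closest single pair was Rsad2 and Cmpk2, a nucleotide kinase gene whose start lies 26458 bases away on chromosome 12, with rho 0.971. The 12 pairs whose starts lie within 200 kb had a median rho of 0.917, and the other 654 pairs had 0.773. The same genes recur among these 12 pairs. Some pairs include Oas1a or Ifit3, which share much sequence with other genes. Parp9 and Dtx3l, whose exons overlap, are also among them. The part of shared sequence in these values was not tested. After the mean of the members was regressed out, the neighbouring pairs had a median rho of 0.434 and the others had −0.0383. That mean included both genes of each pair. What is left cancels out over the members in each library, so some negative values are built in. Parp14 and Dtx3l, neighbours on chromosome 16, had 0.812, and Rsad2 and Cmpk2 had 0.797. High values were not limited to neighbours: Ifih1 and Parp12, on chromosomes 2 and 6, had 0.671. The lowest value after this step was −0.66, for Oas1a and Parp14.

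Members also differed in how steeply they followed the rest. Per SD of the mean of the other members, the slope on the log2 CPM scale was 1.52 for Ifi44, 1.22 for Ifit3, 1.18 for Rtp4 and 1.16 for Ifit1. It was 0.197 for Dtx3l, 0.203 for Eif2ak2 and 0.213 for Sp100. Eif2ak2 thus followed the other members closely, with rho 0.850, while varying least of all members in level.

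**Figure D3:**
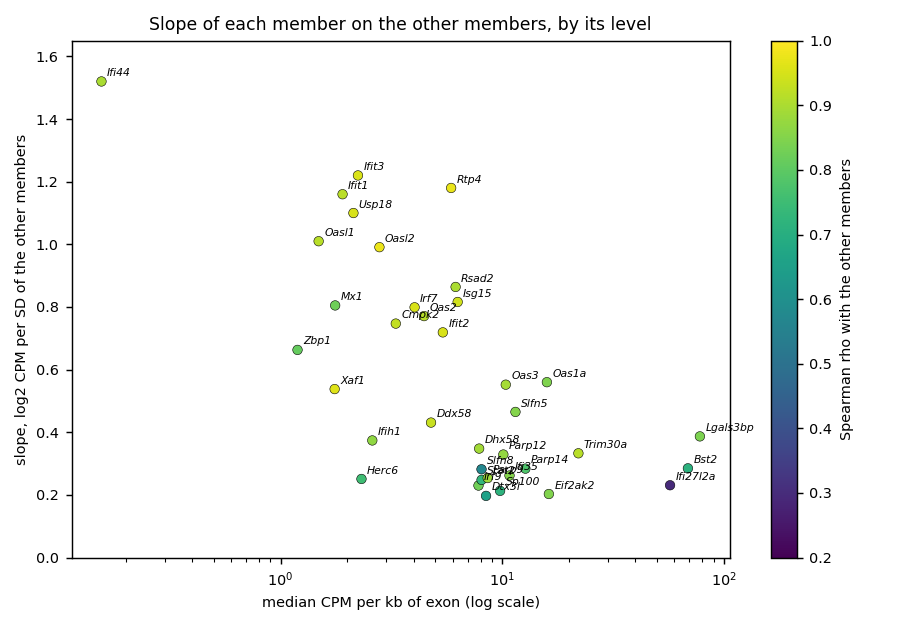
Slope of each member's log2 CPM per SD of the mean of the other members, against its median CPM per kb on a log axis, coloured by Spearman rho with the other members; 1 point per gene. Ifi44 is the steepest at 1.52 and the lowest in level, and Lgals3bp, the most abundant, has 0.387.

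Ifi27l2a, a gene of the ISG12 family, stood apart from the other members. It had 0.0, 26.99 and 73.59 CPM in male libraries and 0.0, 26.39 and 102.0 CPM in female libraries. In 9 libraries it was at most 2.0 CPM, under 0.1 times its median, and the next library had 4.5 CPM. Of these 9, 6 had 0 counts, and they came from 8 date labels and 6 plates. The module score of these 9, the mean z score of log2 CPM over the 37 members, ran between −2.12 and 1.46, so Ifi27l2a was near 0 both in the library with the lowest score and in one with a high score. Ifi44 was under 0.1 times its median in 10 libraries, and there the score was between −2.12 and −0.444. Without Ifi27l2a, the lowest pairwise rho was 0.209, for Herc6 and Slfn8.

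The co-variation was present in each sex and on each plate. The median pairwise rho was 0.689 within male libraries and 0.829 within female libraries. Within plates it was 0.60 on plate 1, 0.779 on plate 2, 0.83 on plate 3, 0.875 on plate 4, 0.778 on plate 7, 0.603 on plate 8 and 0.699 on plate 10. Plate 1 held only 6 libraries.

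No member passed the test for a difference between the sexes, yet all 37 had lower fitted levels in males. With edgeR's quasi-likelihood test, plate as a covariate and Benjamini-Hochberg adjustment over 12060 genes, 0 of 37 were called at an adjusted p of 0.05, against 5.02% of all tested genes. The limma voom and DESeq2 tests called 0 members as well. Unadjusted p-values fell under 0.05 for 10 of 37 members, all 10 lower in males, against 9.83% of all tested genes lower in males at that p. In either direction, 2412 of the 12060 tested genes reached it. The median log2 difference, male minus female, was −0.12 over the members, and 48.8% of all tested genes were lower in males. The number of members lower in males was 34 with date in place of plate and 36 with lane within plate or with limma voom. Ifi27l2a was higher in males in all 3 of these fits, and Rsad2 and Slfn8 were with date in place of plate. Without adjustment for plate, the median CPM was higher in male than in female libraries for Rsad2, Mx1, Cmpk2, Herc6, Ifi27l2a and Slfn8. The members move together, so 37 signs that agree are not 37 separate observations.

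**Figure D4:**
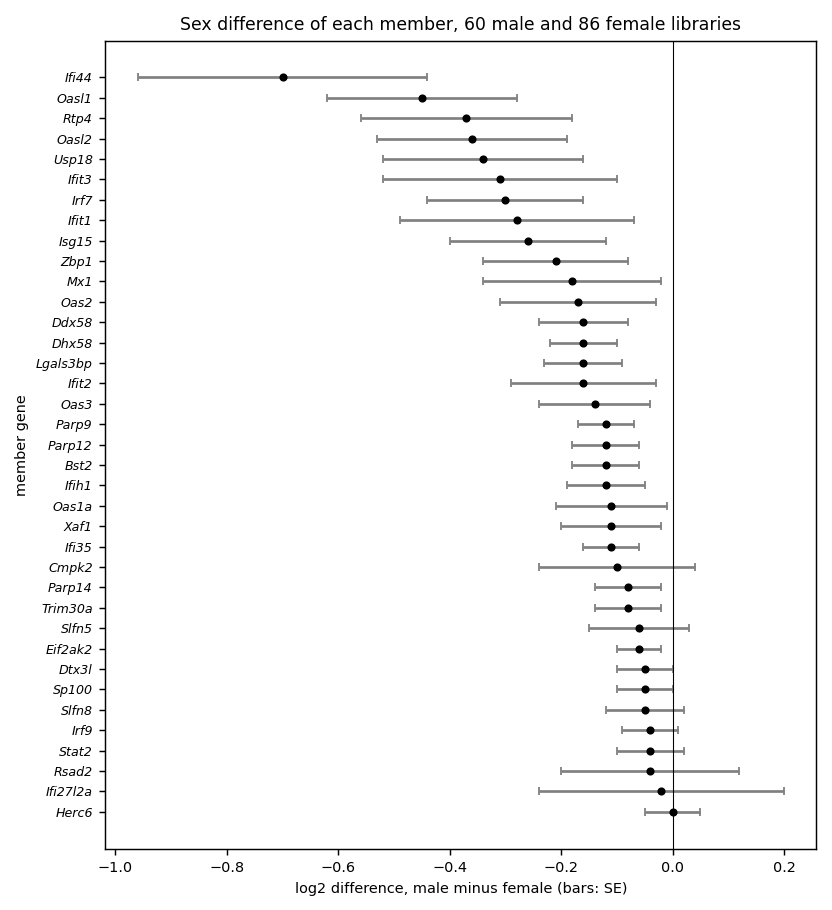
Log2 difference of each member, male minus female, from edgeR with plate as a covariate over 60 male and 86 female libraries; points are estimates and bars are standard errors. All 37 estimates lie at or below 0, with Ifi44 at −0.70 and Herc6 nearest to 0.

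Ifi44 had the smallest p, with a log2 difference of −0.70 ± 0.26 (SE) and an edgeR adjusted p of 0.0913. Oasl1 had 0.7177, 2.921 and 14.77 CPM in male libraries and 0.6928, 4.477 and 23.8 CPM in female libraries, a log2 difference of −0.45 ± 0.17 with an edgeR adjusted p of 0.112. Next came Dhx58, with −0.16 ± 0.06, Parp9, with −0.12 ± 0.05, Lgals3bp, with −0.16 ± 0.07, and Ifi35, with −0.11 ± 0.05. None of these passed the adjusted threshold.

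The calls depended on the batch term and on the libraries kept. With lane within plate in place of plate, 5 members were called by edgeR as lower in males, against 4.21% of all tested genes lower in males in that fit. These were Oasl1 at −0.65 with an adjusted p of 0.0271, Dhx58 at −0.22 with 0.0355, Ifi44 at −0.90 with 0.0432, Parp9 at −0.17 with 0.0329 and Lgals3bp at −0.24 with 0.0322. Without the 6 libraries against their sex label, Ifi44 was called at −0.78 with an edgeR adjusted p of 0.0429, against 4.21% of all tested genes lower in males there. Without male 34 as well, 4 members were called by edgeR as lower in males, against 4.38% of all tested genes lower in males there: Oasl1 at −0.56 with an adjusted p of 0.0307, Dhx58 at −0.19 with 0.0457, Ifi44 at −0.80 with 0.0399 and Parp9 at −0.15 with 0.0415. Male 34 was picked for this after its values were seen, partly for its Ifnb1 counts, and it is a male library with a high score, so these 4 calls are not independent of the choice. No sex difference was found to differ between plates. For the interaction, edgeR called 0 of 37 members at an adjusted p of 0.05, against 0.0415% of all tested genes. The smallest edgeR adjusted p of a member was 0.996. With limma voom, 0 members were called, against 1 of 12060 tested genes. The unadjusted edgeR p was under 0.05 for 0 members, and the share of all tested genes at that p was not counted.

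Most members differed between plates and between collection dates. Between plates, 23 of 37 members were called by edgeR, against 74.8% of all tested genes. Between date labels, 30 of 37 were called, against 87.6% of all tested genes. With plate held as a covariate, 3 of 37 were called between dates, against 69.2% of all tested genes: Slfn8 with an adjusted p of 0.00196, Herc6 with 0.0166 and Ifi44 with 0.0255. Without the 6 libraries against their sex label, 19 members were called between plates, against 72.3% of all tested genes, and 25 between dates, against 85.4%. Without male 34 as well, 17 were called between plates, against 71.7%, and 23 between dates, where 10242 of 12044 tested genes were called. Only 10 of the 28 date labels lay on more than 1 plate, so the date and plate terms overlap. The difference between the members' share and that of all genes was not itself tested.

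The adjusted share of variance between date labels had a median of 16.4% over the members, against 25.4% over all tested genes, and 2 members lay above 25.4%. Between plates the median was 7.84% over the members, against 11.0% over all tested genes. Oas1a had the largest date share, 27.4%, followed by Ifih1 with 26.2%, Slfn8 with 25.2% and Lgals3bp with 25.2%. The smallest shares were −0.43% for Ifi27l2a, 3.76% for Zbp1, 7.24% for Stat2 and 8.49% for Mx1. Slfn8, a Schlafen family gene, was called between dates with an edgeR adjusted p of 0.000481 and was not called between plates, with 0.834.

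Oas1a had a median of 29.05 CPM on plate 1, 25.1 on plate 2, 37.89 on plate 3, 39.67 on plate 4, 37.56 on plate 7, 23.34 on plate 8 and 23.38 on plate 10. Ifih1 had 19.92, 19.76, 25.03, 26.77, 26.0, 19.11 and 16.96 CPM on the same plates in that order. Plates 3, 4 and 7 were the highest 3 for both genes, and ranges overlapped between all plates: Oas1a ran between 9.636 and 75.06 CPM on plate 10 alone.

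The module score placed the libraries along 1 axis. It averaged −0.133 ± 0.71 in male libraries (SD, n = 60) and 0.0925 ± 0.946 in female libraries (SD, n = 86), and the sexes overlapped. The lowest, median and highest scores were −1.75, −0.239 and 1.92 in male libraries and −2.12, −0.0386 and 2.39 in female libraries. Female libraries were 7 of the 8 highest and 58.9% of all libraries. The cut at 8 was not the one set for naming libraries, which was 5 from each end. In 11 libraries every one of the 37 members was above its median, and in 9 none was.

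The highest scores were 2.39 in female 3, 2.20 in female 61, 2.11 in female 43, 1.99 in female 73 and 1.92 in male 24. The lowest were −2.12 in female 30, −1.75 in male 28, −1.50 in female 2, −1.50 in male 18 and −1.49 in male 22. Female 3 had 24.39 CPM of Isg15 and 87.35 CPM of Irf7, and female 30 had 1.559 CPM of Isg15 and 4.766 CPM of Irf7. Eif2ak2 differed less between them, with 121.5 CPM in female 3 and 64.63 CPM in female 30. Female 3 and female 2, the highest and the third lowest of all, shared a date label, a plate and a lane.

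**Figure D5:**
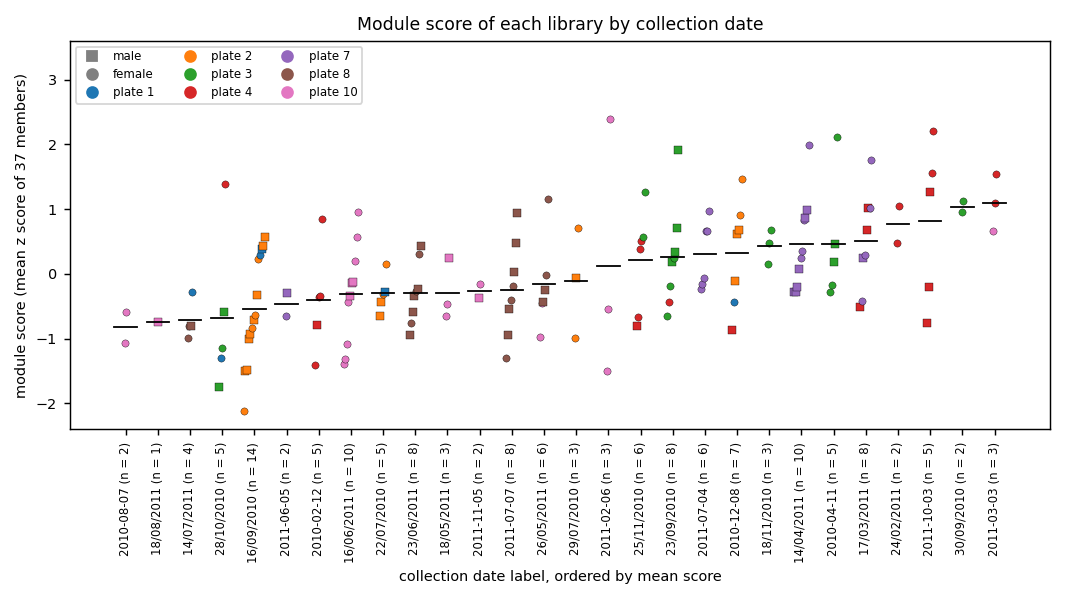
Module score of each library, the mean z score of 37 members, by collection date label in order of mean score; squares are male, circles female, colours are plates and bars are date means. Scores spread widely within most dates, and the date of female 3 and female 2 spans 3.89.

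Among date labels with at least 4 libraries, the highest mean scores were 0.809 on 2011-10-03, 0.511 on 17/03/2011 and 0.457 on 2010-04-11. The lowest were −0.719 on 14/07/2011, −0.678 on 28/10/2010 and −0.548 on 16/09/2010. Labels that begin with the year leave the order of day and month open, so they served only as names. The pooled SD of the score within date labels was 0.795, against 0.862 over all libraries, so most of the spread lay among mice collected under 1 label.

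The score had little relation to depth, with Pearson r 0.079 over 146 libraries on log2 total count. Summed conventional dendritic cell markers had r −0.418 and rho −0.451, and 5 of the 6 markers had a negative rho. Their summed level ran from 14.83 to 133.3 CPM in male libraries and from 14.9 to 115.1 CPM in female libraries. B cell markers, of which 1 of 4 was tested, had r −0.332, monocyte markers −0.213, macrophage markers −0.18 and plasmacytoid dendritic cell markers −0.125. T and NK cell markers, of which 0 of 4 were tested, had −0.265, and stromal markers had −0.151. Granulocyte and precursor markers had −0.126, and of the 9 tested, 2 had a positive rho and 7 a negative one. Erythroid markers, of which 0 of 3 were tested, had 0.107. All 3 monocyte markers had a negative rho, but 4 of the 7 macrophage markers had a positive rho and 3 a negative one. Plasmacytoid dendritic cells are potent makers of interferon, and their 6 listed markers summed to 56.51 to 91.67 CPM in male libraries and 54.34 to 82.73 CPM in female libraries. Of these, 5 were tested and 2 had a positive rho with the score, and Klk1 was at 0 CPM in the median library. The part of these cells in the score was not tested.

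Genes outside the list that ran most like it were drawn only from those of the 12060 tested genes whose mean log2 CPM was 1 or more. That floor left out, for example, Ifit3b, with rho 0.911 with the score, Mx2, with 0.876, and Oas1b, with 0.806. Ifit3b shares 45.5% of its sampled 50-base stretches with another gene. Rnf213, a giant ubiquitin ligase, had rho 0.922 with the score over 146 libraries. High values were also found for Samd9l with 0.868, Ddx60 with 0.854, Oas1g with 0.838, Phf11d with 0.838, Cxcl10, a chemokine, with 0.833, and Helz2 with 0.818. Oas1g shares 47.6% of its sampled 50-base stretches with another gene, and its level is uncertain. Lower among the most alike were Phf11b, Adar, Gm4070, Irgm1, Gm5431, Ifi204 and Ube2l6, with rho between 0.742 and 0.800. Phf11b, Gm4070 and Gm5431 share 47.2%, 98.2% and 45.5% of their stretches with another gene. The most negative were Vsir, an immune checkpoint receptor, with −0.595, Adssl1 with −0.589, Mettl7a1 with −0.588 and Layn with −0.582. Mettl7a1 shares 25.2% of its stretches with another gene. Aifm2, Snx9, Itgb2 and Cyp4f13 had values between −0.576 and −0.564. Over all tested genes the median was −0.0152 and 2.01% exceeded 0.5.

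Other genes of the pathway were read against the score list by list. Of 39 tested interferon-stimulated genes outside the module, 37 had a positive rho with the score and 22 exceeded 0.5, with a median of 0.578. Of 13 tested receptors and signal transducers, 2 were positive, 1 exceeded 0.5 and the median was −0.15. Among the negative ones, Ifnar1, a chain of the type I receptor, had −0.391, Ifnar2 −0.313 and Ifngr1 −0.484. Of 14 nucleic acid sensing genes, 11 were positive and 3 exceeded 0.5, namely Adar, Tlr3 and Trex1, with 0.797, 0.642 and 0.580, though Trex1 shares 98.0% of its stretches with another gene. Of 8 negative feedback genes, 3 were positive and none exceeded 0.5. Of 12 tested genes tied to interferon gamma, 9 were positive and 4 exceeded 0.5, among them Irgm1 with 0.791.

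Sex calls in these lists were few. Il10rb, a shared receptor chain, was higher in males with a log2 difference of 0.09 ± 0.02 and an edgeR adjusted p of 0.0024, the only call among the receptors, against 2.17% of all tested genes called higher in males. It shares 27.3% of its stretches with another gene, so its level is uncertain. Among the interferon gamma list, 2 genes were lower in males, against 2.84% of all tested genes: Psmb8, an immunoproteasome subunit, at −0.14 ± 0.03 with an edgeR adjusted p of 0.000391, and Tap1, the peptide transporter, at −0.16 ± 0.04 with 0.0206. No gene of the sensing, negative feedback or other interferon-stimulated lists was called by edgeR, against 5.02% of all tested genes in either direction. The unadjusted edgeR p was under 0.05 for 1 of 14, 1 of 8 and 3 of 39 of their tested genes. Over all tested genes it was so for 2412 of 12060.

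Interferon transcripts themselves were at or near the detection limit. None of 9 interferon genes passed the filter on low counts. Ifnb1, the interferon beta gene, had 117 counts in 30 of 146 libraries, and Ifng had 27 counts in 21 libraries. Ifna4 had 6 counts, and Ifna1, Ifna2 and Ifna5 had 1 each. Ifnl2, Ifnl3 and Ifne had 0 counts among 6914 M over all libraries. Male 34 held 45 of the Ifnb1 counts, 0.747 CPM, and had the highest Rsad2 of any library, 132.0 CPM, with a score of 1.26.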

How the data were processed

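RNA was measured in 146 libraries of bone marrow-derived macrophages, 1 per mouse, with poly(A) selection and paired reads of 100 bases per the labels' protocols. The submitters' processing notes name FastQC, TopHat2 2.0.11, HTSeq 0.6.1, DESeq2 and the genome build GRCm38 (mm10); the annotation release and the strand setting are not given in the sources used here. The authors deposited whole-number counts per Ensembl gene, and a second table of variance-stabilised values on a log2 scale, deposited by the authors, which served as an alternative and held 35 of the 37 members. Of 22721 row identifiers, 21899 were named from GENCODE M21.

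From the counts, CPM were scaled with edgeR 4.0.16 in R 4.3.3 (TMM), genes were filtered with filterByExpr by sex, and log2 CPM used a prior count of 2. Differences by sex (plate as covariate), by plate and by date label (sex as covariate) and the sex by plate interaction were tested with edgeR's quasi-likelihood F test, with Benjamini-Hochberg adjustment over 12060 genes at 0.05. The procedure was also run on simulated counts, drawn for each gene separately and without the plate and date differences of these data. That run does not show how the tests behave where genes move together. limma 3.58.1 (voom) and DESeq2 1.42.0 were alternatives, as were other size factors, no filter, other batch terms, plates or libraries left out and the deposited log2 values. Correlations are descriptions. Exon lengths and shared 50-base stretches came from GENCODE M21 transcripts, and promoter sequences from RefSeq.

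The members and lists were chosen with earlier results of these data known. Members were named by rank of level, spread, correlation, sex p and date share, 4 to 6 from each end. Other genes were named by the 15 highest and 8 lowest correlations with the score, at a mean log2 CPM of 1 or more. The values of 1 of these genes are not reported here. Total counts, 14.5 to 121 M, set the precision; floors of 3 counts cover counting error only.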

Additional observations from a re-analysis of the deposited data

How the results depend on the processing

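The count of members called between the sexes, 0 as reported, was 5 with lane within plate in place of plate, 1 without the 6 libraries against their sex label, and 4 without these and male 34. The last setting was chosen after the data were seen, and male 34 was picked partly for Ifnb1 counts, which are not independent of the members. The count was 0 with DESeq2 size factors, the DESeq2 test, limma voom, no filter on low counts and date in place of plate. The date count was 3 with plate as a covariate, against 30. The median pairwise rho was 0.60 within plate 1 and 0.603 within plate 8, against 0.775. The cause of these shifts was not tested. Plate calls, 23 as reported, ran between 17 and 25 and date calls, 30 as reported, between 23 and 32 over the other alternatives. The lowest counts were those without the 6 libraries and male 34, where 6 plate calls and 7 date calls were lost. The sign of the sex difference turned for Ifi27l2a, −0.02 as reported, to 0.07 with date in place of plate, 0.01 with lane within plate and 0.41 with limma voom, and for Rsad2, −0.04 as reported, to 0.05 with date in place of plate, where Slfn8 turned too. None of these 3 was called. The 6 members with the smallest sex p kept their sign in every alternative. No paired analysis was possible because the labels give the sexes no shared replicate numbers. Low counts limit Ifi44 and the interferon genes, and shared sequence limits Oas1a and Ifit3.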

Other observations

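Ifnb1 counts were concentrated in few libraries. The 5 libraries with the most were male 34 with 45 counts, female 75 with 19, female 6 with 6, female 38 with 5 and male 21 with 5, of 117 in all. In the order named, Cxcl10 stood at 25.8, 16.7, 20.5, 9.33 and 4.96 CPM and Rsad2 at 132.0, 65.6, 52.6, 40.6 and 87 CPM. Their module scores were 1.26, 0.832, 0.667, 0.158 and 0.562, which rank 12, 27, 34, 62 and 39 of 146, so none was among the 5 highest scores.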
